A study of Rattus norvegicus with 27 samples.

Results

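The comparison described here is the change between 8 h and 24 h in rat oligodendrocyte precursor cells (OPCs) kept in thyroid hormone (T3) and interferon-γ (IFNγ). It sets the 3 T3+IFNγ arrays at 24 h against the 3 T3+IFNγ arrays at 8 h, 6 of the 27 arrays of the study, paired by donor. All 14218 genes with a probe set of their own were tested, each through the brightest such probe set over the 27 arrays. The cells came from the cerebral cortices of early postnatal pups, selected with magnetic beads for A2B5 and expanded in platelet-derived growth factor (PDGF), which keeps OPCs dividing. PDGF was then withdrawn, and T3 was added with or without rat IFNγ. The groups used are T3+IFNγ and T3 at 8, 24, 48 and 96 h and PDGF at 0 h, with 3 donors in each. Both times of the step share the medium, so passing time, the effect of T3 and the loss of PDGF cannot be told apart within it, and IFNγ without T3 was not analysed here.

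T3 withdraws OPCs from the cell cycle and starts the program that leads through premyelinating oligodendrocytes to myelin. IFNγ, the main cytokine of T helper 1 and CD8+ cells, first switches on a set of genes such as Irf1 that carry GAS elements (γ-activated sites). The proteins of that first set, with CIITA for MHC class II and the IRF family for genes with an interferon-stimulated response element (ISRE), then drive a later set. In the cell cycle, genes of the late phases are repressed together through the CHR and CCAAT elements of their promoters when cells stop dividing.

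The values are log2 signals from the robust multiarray average (RMA), and array medians lay between 5.95 and 6.03. The Gapdh 3' probe set exceeded the 5' one by 0.11 in the 24 h array and 0.37 in the 8 h array of donor 2, while in the other 4 arrays of the step the difference was between −0.23 and −0.17. For beta-actin it was 1.47 and 1.34 in the same arrays of donor 2 and 0.89 to 0.96 in the others. Both arrays of donor 2 thus stood apart at both times, and the counts of genes called in the step, in the difference between media and by the rule for delayed genes are given without them as well. The part of RNA quality in the step was not tested. The OPC genes Pdgfra and Cspg4 and the lineage factors Olig2 and Sox10 had mean log2 signals above the overall median of 5.99 at both times with T3+IFNγ.

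Between 8 h and 24 h with T3+IFNγ, genes of antigen presentation and of early oligodendrocytes rose and genes of cell division fell. By limma's moderated test with donors as blocks, 2126 genes were higher at 24 h (15.0% of those tested) and 2219 lower (15.6%) at an adjusted p under 0.05. At least 2-fold were 343 of the higher genes (2.41% of all tested) and 519 of the lower (3.65%). The 24 h and 8 h values did not overlap in 4523 genes, 31.8% of all, so a lack of overlap was common. The largest rises that went the same way in all donors included RT1-N2, a class I gene of the rat MHC, Tnr, Sema5a and Myrf of the oligodendrocyte lineage, and Cd74 of MHC class II. The largest falls were of mitotic genes such as Shcbp1 and Ska1. Sizes depend on the probe set: with the mean of all of a gene's probe sets, 25 named genes had a step that moved by over 1.5 times, of which 19 were still called, and Sema5a then rose by 1.70 in place of 3.85. In bulk RNA, fewer cells of a type and less RNA per cell cannot be told apart. When both donor 2 arrays of the step were left out, which was decided with the data in view, 1354 genes were higher and 1693 lower. Without donor 2 in any group these counts were 1070 and 1453, and without donor 3 they were 1284 and 1303.

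The majority of genes called in the step were called the same way without IFNγ. In T3 cultures 1933 genes were higher at 24 h than at 8 h (13.6%) and 2182 lower (15.3%). Of the genes higher with T3+IFNγ, 1306 were also higher with T3, 61.4% of one list and 67.6% of the other, and 1562 were lower in both, 70.4% and 71.6%. The 2 steps share donors but no arrays. The step itself was different for 118 genes that moved more upward with T3+IFNγ (0.830%) and 93 that moved more downward (0.654%), by the interaction term of the same limma fit. Without both donor 2 arrays of the IFNγ step these counts were 52 and 57, without donor 2 altogether 6 and 4, without donor 3 18 and 9, and without donor 1 166 and 149. Of 38 named genes with a called difference, Cd74, RT1-A, RT1-CE5, RT1-N3, Rnf128, Sectm1b and Tppp, 7 in all, kept the call under every alternative, and the call of each of the others was lost under at least 1 of them.

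**Figure D1:**
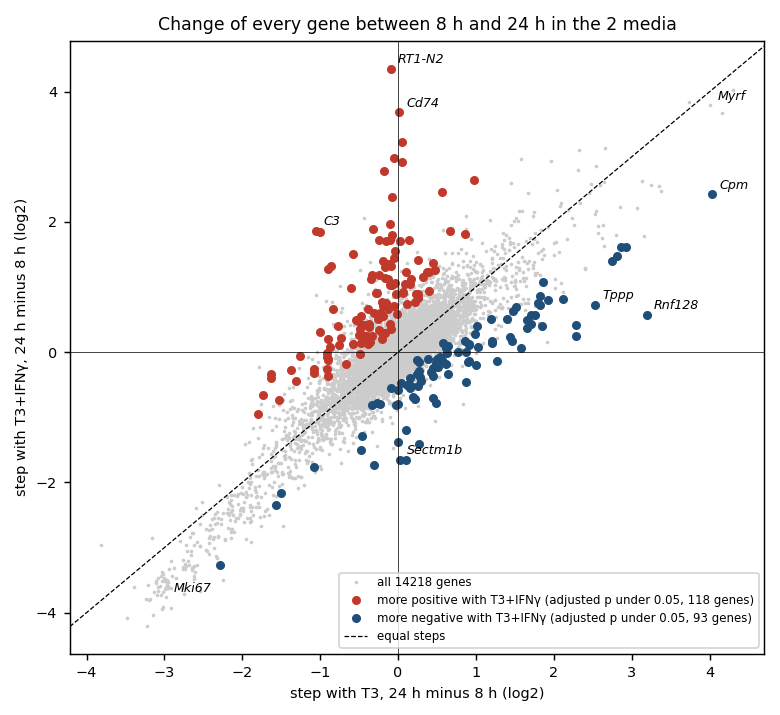
Change between 8 h and 24 h (log2) of 14218 genes with T3+IFNγ (y axis) against the change with T3 (x axis), with the 118 genes that moved more upward with T3+IFNγ in red and the 93 that moved more downward in blue. Cd74 changed by 3.68 with T3+IFNγ and 0.01 with T3, whereas Tppp changed by 0.73 and 2.53.

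Genes of MHC class II rose between 8 h and 24 h, and their coactivator Ciita was not called. Of 11 measured genes of the pathway, 6 had already been called higher with IFNγ than with T3 at 8 h (median effect of the 11, 1.16). Cd74, the invariant chain that escorts class II molecules, had log2 signals of 9.93, 10.13 and 11.17 at 24 h (donors 1 to 3) and 6.76, 6.40 and 7.04 at 8 h. All 24 h values lay above all 8 h values, and the step was 3.68 ± 0.28 on the log2 scale (standard error, limma adjusted p = 1.7e-09), or 12.8-fold. In T3 cultures Cd74 changed by 0.01, and the steps differed by 3.67 (adjusted p = 1.8e-05).

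RT1-Db1, a class II β chain, had log2 signals of 9.85, 10.37 and 10.68 at 24 h and 7.99, 7.07 and 7.10 at 8 h, without overlap. Its step was 2.91 (limma adjusted p = 1e-09, and a step of 1.92 with the mean of its probe sets), against 0.06 with T3, and the difference was not called without donor 2 (adjusted p = 0.0694). The α chain RT1-Da rose by 2.38 and the β chain RT1-Bb by 1.80, while RT1-Bb had not been called higher with IFNγ at 8 h (0.77). Ciita, the coactivator that controls class II promoters, had log2 signals of 7.75, 8.21 and 8.03 at 24 h and 8.38, 8.55 and 8.31 at 8 h. These also did not overlap, as in 31.8% of all genes, but the step of −0.41 did not pass (limma adjusted p = 0.11). Of 11 measured genes of the class II pathway, 5 rose and none fell (median 0.76), and 6 moved more upward than with T3. RT1-DMb, which helps load peptides, was the other riser with 1.19, and RT1-DMa, its partner chain, moved more upward by 0.88. These last genes were named after their values were seen.

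Genes that make and load class I peptides rose as a group. Of 18 measured genes of the immunoproteasome and class I presentation, 13 rose and none fell with T3+IFNγ (median 0.57), whereas 2 rose and 3 fell with T3 (median −0.18), and 8 moved more upward with IFNγ. Over all genes the median of the step was −0.01. Ubd, a ubiquitin-like modifier that marks proteins for the proteasome, had log2 signals of 12.41, 11.63 and 12.94 at 24 h, against 8 h values of 10.31, 8.35 and 9.38. The groups did not overlap, and the step was 2.98 (limma adjusted p = 8.3e-08). Psmb8, a catalytic subunit of the immunoproteasome, had 12.68, 12.69 and 12.84 at 24 h and 11.61, 11.24 and 11.34 at 8 h, a step of 1.34 (adjusted p = 5.2e-05) beside −0.13 with T3.

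Class I heavy chains rose as well. RT1-A, a classical class I gene, had log2 signals of 9.32, 9.49 and 9.74 at 24 h, against 8 h values of 6.95, 6.37 and 6.91. The values were far apart relative to the spread between donors, with a step of 2.77 ± 0.16 (limma adjusted p = 1.7e-11) and a difference from T3 of 2.95. RT1-N2, a class Ib gene, had 9.65, 8.55 and 7.44 at 24 h and 4.78, 4.12 and 3.68 at 8 h. Its step of 4.35 (adjusted p = 4e-08) was the largest rise among the genes called and of 1 direction in all donors. RT1-N2 was not called higher with IFNγ at 8 h (0.30) and was higher by 4.75 at 24 h. RT1-CE5 and RT1-N3 rose by 1.89 and 1.73. RT1 class I genes are near copies of one another, so a probe set may take up RNA of several of them, and the gene behind each value is uncertain.

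**Figure D2:**
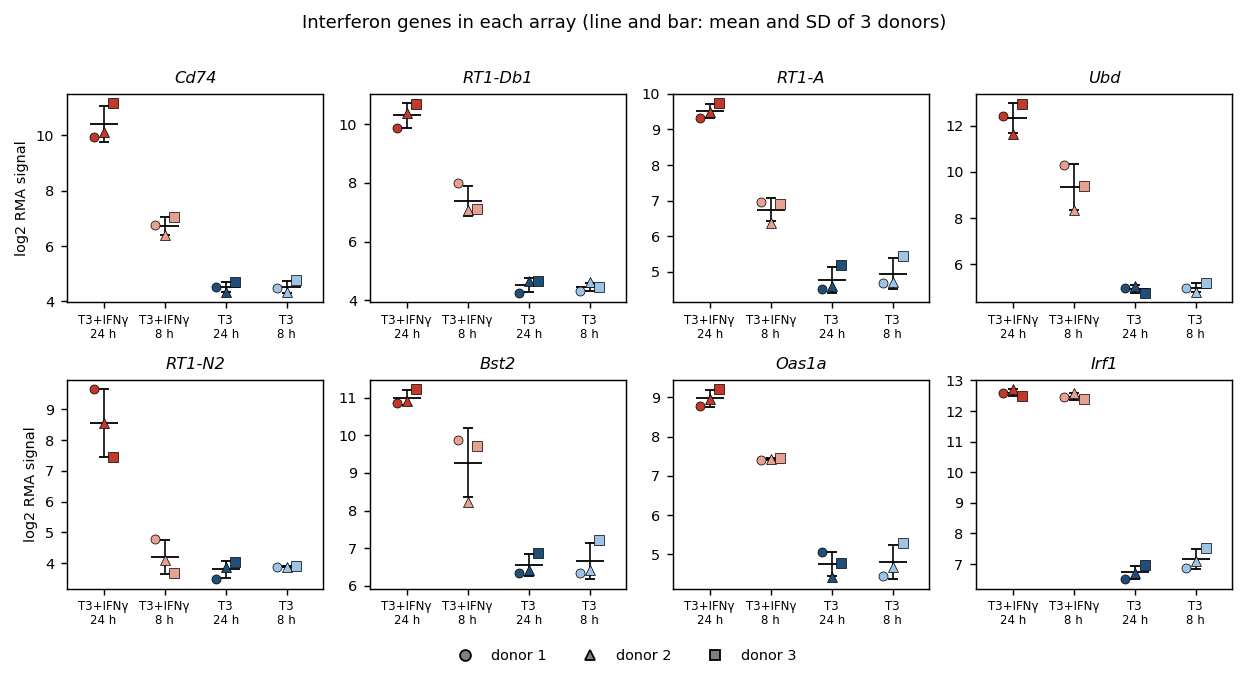
Log2 RMA signal (y axis) of 8 interferon genes in each array of both media at 24 h and 8 h, T3+IFNγ in red and T3 in blue, with a symbol for each donor and the mean and SD as line and bar. The step of Cd74 was 3.68 and that of Oas1a 1.55, whereas Irf1 stood between 12.38 and 12.71 in all 6 T3+IFNγ arrays.

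Some of the antiviral effectors rose further. Of 27 measured, 8 rose and none fell (median 0.15), where 15.0% of all genes were higher and 15.6% lower. Bst2, Zbp1 and Oas1a, 3 in all, moved more upward than with T3. Bst2, which tethers virions to the cell surface, had log2 signals of 10.86, 10.92 and 11.22 at 24 h and 9.88, 8.23 and 9.70 at 8 h, a step of 1.73 (limma adjusted p = 1.9e-05). The lowest 8 h value was that of donor 2. Oas1a, a synthetase of the RNase L pathway, had 8.77, 8.96 and 9.20 at 24 h and 7.41, 7.43 and 7.45 at 8 h. Its arrays at 8 h were nearly equal, and the step was 1.55 (adjusted p = 3.2e-07). Zbp1, a sensor of left-handed nucleic acid, rose by 1.70, and Mx1, a GTPase against RNA viruses, by 1.10. Gbp4 was the riser among 6 interferon-inducible GTPases, which act on vacuoles of pathogens, with 0.90 (adjusted p = 9e-04).

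The transcription factors of the response were mostly not called in the step, which was also so for 69.4% of all genes. Irf1 had log2 signals of 12.58, 12.71 and 12.49 at 24 h and 12.46, 12.58 and 12.38 at 8 h, which overlapped, with a step of 0.12 (limma adjusted p = 0.6). Of 9 interferon regulatory factors and STATs, Stat2 rose by 0.35 (adjusted p = 0.017, and 0.355 without both donor 2 arrays) and none fell. Among 11 genes of the IFNγ receptor and its inhibitors, the deconjugase Usp18 rose by 0.75 (adjusted p = 0.0087, and 0.12 without donor 2) and the phosphatase Ptpn2 and the STAT inhibitor Cish fell by 0.29 and fell by 0.26, of which Ptpn2 was not called with the mean of its probe sets (0.51) and Cish not without donor 1 (0.183). Of 18 chemokines, Cxcl11, a ligand of the chemokine receptor CXCR3 of T cells, rose by 1.31 (adjusted p = 0.025, and 0.195 without donor 2), and Ccl19, which guides dendritic and T cells, by 0.91. Beside these counts, 15.0% of all genes were higher in the step and 15.6% lower.

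Genes of complement rose with T3+IFNγ. C3, the central complement component, had log2 signals of 9.20, 9.29 and 10.89 at 24 h, against 8 h values of 7.81, 7.41 and 8.55 with T3+IFNγ, without overlap. Its step was 1.87 (limma adjusted p = 8.9e-04, and 0.0513 without donor 3), beside −1.05 with T3, which was not called, and the steps differed by 2.92 (adjusted p = 0.0077, and 0.308 without donor 3). Serping1, the inhibitor of C1, rose by 1.5, and the C1 proteases C1s and C1r by 1.03 and 0.69, of which C1r was not called without donor 2 (0.178). Of 8 complement genes 4 rose, and the surface inhibitor Cd55 fell by 0.46.

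Lyz2, the lysozyme of macrophages and microglia, had log2 signals of 11.94, 11.78 and 12.69 at 24 h, against 8 h values of 10.06, 9.66 and 11.15, with T3+IFNγ. With T3 it had 8.56, 8.04 and 10.05 at 24 h, against 8 h values of 9.47, 9.09 and 11.11. Donor 3 was the highest in each group. Lyz2 rose by 1.84 with T3+IFNγ and fell by 1.01 with T3, and the difference of 2.85 (limma adjusted p = 8e-04) was not called without donor 2 (0.0815) or with no replicate block (0.122). The cytokine gene Il1b rose by 1.39, beside −0.20 with T3 (difference 1.59, adjusted p = 0.039, and 0.505 with no block).

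Markers of microglia and macrophages were present, and their values stand beside these genes. Of 20 measured markers, 15 had a mean log2 signal over 6 in T3+IFNγ at 24 h. Their mean log2 signal ranged over donors from 7.10 to 8.36 in the 24 h arrays and 6.98 to 8.20 in the 8 h arrays with T3+IFNγ, and from 5.77 to 7.01 in the 24 h arrays and 6.39 to 7.60 in the 8 h arrays with T3. P2ry12, a purine receptor, and Ly86, a partner of a Toll-like receptor, rose with T3+IFNγ by 0.95 and 0.75, and neither was called when both donor 2 arrays were left out (0.0551 and 0.103). None fell, and the median step was 0.13, against −0.54 with T3, where none was called. No marker had a called difference between the steps (median 0.69). Fcer1g, the brightest, had 9.95, 9.38 and 11.13 at 24 h and 9.82, 9.49 and 10.82 at 8 h, which overlapped (step 0.11). Against T3 at the same time, 4 of the 20 markers were called higher with T3+IFNγ at 8 h and 11 at 24 h. At 48 h 16 were higher and at 96 h 17 (median effect 2.06), where 10.3% and 11.0% of all genes were. None was called lower at any of these times. The part of such cells in the rises of Lyz2, C3, Il1b and the MHC class II genes was not tested.

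The genes that rose in the step and rose by more than with T3 are called delayed IFNγ genes here, and there were 87. The name refers to this rise after 8 h, also where IFNγ had already raised the gene at 8 h. With both donor 2 arrays of the step left out 40 genes met the rule, without donor 2 altogether 6 did, without donor 3 14 and without donor 1 131. Of the 87, 36 had already been called higher with IFNγ at 8 h. Their median IFNγ effect was 1.89 at 8 h and 3.35 at 24 h. The other 51 had not, with medians of −0.22 and 0.63. Among the 51, 14 had been called lower with IFNγ at 8 h, and 37 were called higher at 24 h. The IFNγ effects at 8 h and 24 h share arrays with the step, so they are given as a description only. The 48 h and 96 h arrays do not enter these contrasts, but they share with them the estimate of the spread, the donor block and the choice of probe sets. At 48 h, 71 of the 87 were higher with T3+IFNγ than with T3 and 5 lower, where 10.3% of all genes were higher and 11.9% lower. At 96 h, 66 were higher and 1 lower, where 11.0% and 7.90% of all genes were. Among the 51 genes not yet higher at 8 h, 35 were higher and 5 lower at 48 h, and 32 and 1 at 96 h. With no replicate block, 65 and 59 of the 87 were higher at 48 h and 96 h.

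**Figure D3:**
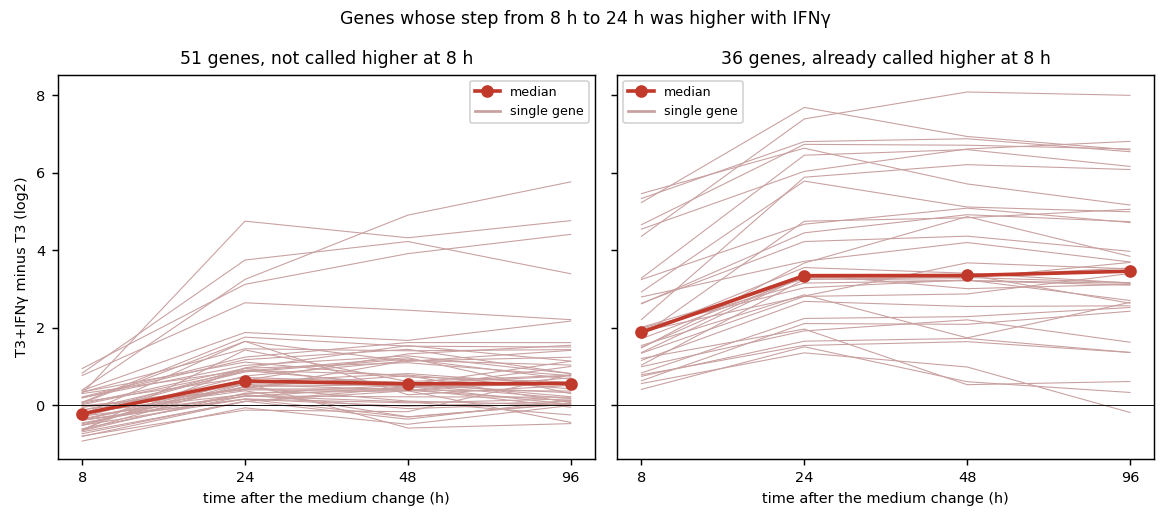
The vertical axis gives T3+IFNγ minus T3 (log2) and the horizontal axis the hours after the medium change, for the 51 delayed genes not called higher at 8 h (left) and the 36 already called higher (right), with a line for each gene and the median in red. The medians at 48 h were 0.56 and 3.35.

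The delayed genes outside the interferon lists had varied roles. Plac8, a small protein of immune and epithelial cells, rose by 3.22 (limma adjusted p = 2e-06) and had been higher with IFNγ by 3.28 at 8 h. Aldh1l1, a folate enzyme used as an astrocyte marker, had log2 signals of 8.46, 10.48 and 10.07 at 24 h and 6.56, 7.31 and 7.18 at 8 h, without overlap. Its step of 2.65 exceeded that with T3 (0.97) by 1.68 (adjusted p = 0.013, and 0.0579 without both donor 2 arrays), and its IFNγ effect at 48 h was 1.53. Gpr20, an orphan receptor, and Gdpd2, a glycerophosphodiester phosphodiesterase, rose by 2.46 and 1.97, and Armc3 by 1.45. Agt, the precursor of angiotensin, rose by 1.86 and Ndrg2, another gene common in astrocytes, by 1.81 (0.87 with the mean of its probe sets), while with T3 alone they also rose, by 0.66 and 0.85. Nqo1, a quinone reductase of the antioxidant response, rose by 1.13, and Vcam1, an adhesion molecule for leukocytes, by 0.77, and at 48 h both were higher with IFNγ (0.82 and 1.45).

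Genes that IFNγ had raised at 8 h went both ways in the step. Of 662 genes higher with IFNγ at 8 h (4.66% of all), 137 rose further, 149 fell and 376 were not called, which is 20.7%, 22.5% and 56.8%, beside 15.0%, 15.6% and 69.4% of all genes. Of the 149, 83 also fell with T3, and 101 were still higher with IFNγ than with T3 at 24 h. These counts share the 8 h arrays, so they are descriptive.

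Some early IFNγ genes fell back by 24 h. Sectm1b, a secreted and transmembrane protein, had log2 signals of 6.17, 5.90 and 6.10 at 24 h, against 8 h values of 8.12, 7.49 and 7.52. The groups were apart, and the fall of −1.65 (limma adjusted p = 3.9e-10) contrasted with 0.02 under T3 (difference −1.67, adjusted p = 5.9e-06). Tcf7, a Wnt effector best known in T cells, fell by 1.66, and Nrcam, a neural adhesion molecule, fell by 1.42, beside 0.10 and 0.27 with T3. Both had been higher with IFNγ at 8 h (2.75 and 1.66), and Nrcam no longer was at 24 h (−0.03). Kdr, a receptor of vascular endothelial growth factor, had 6.81, 6.12 and 6.39 at 24 h and 7.22, 7.12 and 7.07 at 8 h (step −0.69, and −0.35 with the mean of its probe sets). The IFNγ effect on Kdr at 48 h was 0.03. Other falls were those of the tryptophanyl-tRNA synthetase Wars1 (−0.65), the growth factor Tgfb3 (−0.80), the lineage factor Prox1 (−0.75) and the cytokine Il15 (−0.46). Il15 was 3.31 higher with IFNγ at 48 h. Kdr and these genes were named without regard to their IFNγ effect at 8 h. Kdr and Tgfb3 had a called difference from the step with T3 (−0.88 and −0.80), and Wars1, Prox1 and Il15 had none. Prox1 and Il15 were not called without donor 2 (0.0545 and 0.11). In all, 36 genes fell in the step and moved more downward than with T3. Of these, 15 had been called higher with IFNγ at 8 h, where 4.66% of all genes were. Both calls use the same 8 h arrays, which favors such an overlap, so the count is descriptive.

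Promoters of some genes are shown to set these groups beside their sequence. The 150 bases before the RefSeq start site (assembly GRCr8) are printed 5′ to 3′ on the gene's strand, and capitals mark matches, on either strand, to GAS (TTCNNNGAA), ISRE (TTCNNTTTC), CHR (TTTGAA) and CCAAT. RT1-Db1 and RT1-Da stand for the class II genes, Oas1a and Bst2 for the antiviral genes that rose after 8 h, and Ttk and Mki67 for the mitotic genes that fell.
RT1-Db1 (chr20:4560163-4560312, minus strand): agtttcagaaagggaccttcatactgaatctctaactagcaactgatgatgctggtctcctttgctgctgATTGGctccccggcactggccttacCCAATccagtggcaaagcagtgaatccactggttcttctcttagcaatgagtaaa
RT1-Da (chr20:4515265-4515414, plus strand): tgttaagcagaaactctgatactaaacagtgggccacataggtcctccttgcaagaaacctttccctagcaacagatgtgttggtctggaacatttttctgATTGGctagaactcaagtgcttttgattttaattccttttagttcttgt
Oas1a (chr12:41330316-41330465, plus strand): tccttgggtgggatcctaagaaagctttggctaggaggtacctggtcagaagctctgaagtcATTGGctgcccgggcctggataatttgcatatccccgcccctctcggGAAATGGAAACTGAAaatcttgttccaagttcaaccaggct
Bst2 (chr16:18254968-18255117, minus strand): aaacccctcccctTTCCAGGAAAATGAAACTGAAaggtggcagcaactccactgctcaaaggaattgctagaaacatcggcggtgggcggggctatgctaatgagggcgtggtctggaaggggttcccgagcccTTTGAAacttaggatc
Ttk (chr8:93634489-93634638, plus strand): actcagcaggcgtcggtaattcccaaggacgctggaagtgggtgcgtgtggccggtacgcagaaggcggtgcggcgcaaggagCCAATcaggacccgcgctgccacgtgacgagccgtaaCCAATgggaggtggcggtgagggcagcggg
Mki67 (chr1:199952594-199952743, minus strand): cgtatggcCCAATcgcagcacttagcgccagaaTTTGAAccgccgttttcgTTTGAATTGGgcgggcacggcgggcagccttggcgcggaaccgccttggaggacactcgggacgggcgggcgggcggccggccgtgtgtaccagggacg

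In these windows RT1-Da has CCAAT on the minus strand, written ATTGG, from 49 bases before the start, and RT1-Db1 has it on the minus strand from 80 bases and on the plus strand from 55 bases before the start. Oas1a has 2 overlapping ISRE matches on the minus strand, from 41 and 35 bases before the start. Bst2 has a GAS match from 137 bases before the start that overlaps the first of 2 ISRE matches. Bst2 also has a CHR match from 16 bases before the start. Mki67 has CHR matches from 117 and 99 bases before the start, and the second overlaps a CCAAT on the minus strand. Ttk has CCAAT from 67 and 30 bases before the start and no CHR match in this window.

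Over the 300 bases from 250 before to 50 after the start, 11701 of the 14218 genes had a promoter entry. Genes at least 2-fold lower in the step held CHR in 28.4% of 440 promoters and CCAAT in 51.1%, beside 12.3% and 37.3% of all measured genes with a promoter. For genes at least 2-fold higher these shares were 7.46% and 36.9% of 268 promoters. Of the 30 delayed IFNγ genes already up at 8 h that had an entry, 9 (30.0%) held ISRE and 5 (16.7%) GAS. Among all measured genes with a promoter the shares were 7.19% and 6.99%. Of the 40 delayed genes not yet higher at 8 h, 7.5% held ISRE and 7.5% GAS, 3 promoters each. A 2-fold or larger IFNγ rise at 8 h, in delayed genes or others, came with ISRE in 31.3% and GAS in 16.8% of 214 promoters. The shares of the 30 were thus close to those of early IFNγ genes in general. The shares are descriptions, and a match is not a known site.

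Several genes of the oligodendrocyte lineage rose steeply with T3+IFNγ. Myrf, the factor that switches on myelin genes, had log2 signals of 9.46, 9.40 and 8.61 at 24 h and 5.35, 5.23 and 5.52 at 8 h. No value overlapped, and the step of 3.79 ± 0.21 (limma adjusted p = 1.7e-11) stood beside 4.01 with T3. Tnr, an extracellular matrix glycoprotein of premyelinating cells, had 8.60, 8.52 and 8.24 at 24 h and 4.62, 4.47 and 4.19 at 8 h, a step of 4.03, beside 4.30 with T3. Sema5a, a guidance molecule of the lineage, rose by 3.85 (1.70 with the mean of its probe sets) and the lipid carrier Apod by 3.67. In the gene lists used here, Myrf is counted with the lineage factors, Tnr and Sema5a with the OPC genes and Apod with the myelin genes.

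As a group, 17 of 19 early oligodendrocyte genes rose with T3+IFNγ and none fell (median 1.45), as with T3 (17 of 19, median 1.43), and none had a called difference between the steps. Sirt2, a tubulin deacetylase of the lineage, rose by 2.56, Bmp4, a ligand that newly formed oligodendrocytes express, by 2.49, and Nfasc and Enpp6, an adhesion molecule and a choline phosphodiesterase of premyelinating cells, by 1.79 and 1.78, where the mean of its probe sets gave 0.78 for Nfasc. Among 25 OPC genes 16 rose and none fell (median 0.70), with T3 12 rose and 3 fell, and none had a called difference between the steps. Pdgfra, the receptor of PDGF, had log2 signals of 12.66, 12.99 and 12.95 at 24 h, against 8 h values of 12.98, 12.97 and 12.86 with T3+IFNγ, which overlapped. Its step was −0.07 (limma adjusted p = 0.78) with T3+IFNγ and −0.75 with T3, which was called, but the difference of 0.69 was not (adjusted p = 0.086). Cspg4, the NG2 proteoglycan, rose by 0.65 (adjusted p = 0.04, and 0.343 with no block).

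Other lineage factors rose less than Myrf. Nkx2-2, which starts differentiation, rose by 1.29, Hdac11 by 0.95 and Sox10, which maintains the lineage, by 0.53 (limma adjusted p = 0.024, and 0.166 without donor 1). The step of Olig2 was 0.59 and did not pass (adjusted p = 0.11). Of 19 lineage factors 5 rose and 1 fell. Of 19 regulators of progenitors 5 rose and 3 fell (median 0.30), beside 15.0% higher and 15.6% lower over all genes. Hes5, a Notch target that holds cells undifferentiated, rose by 1.37 (0.62 with the mean of its probe sets), beside 0.11 with T3 (difference 1.25, adjusted p = 0.069), and the Notch ligand Dll3 and the factor Id4, both chosen after their values were seen, rose by 0.66 and 0.89, while the intermediate filaments Vim and Nes and the factor Sox11 fell by 1.32, fell by 1.02 and fell by 1.15.

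**Figure D4:**
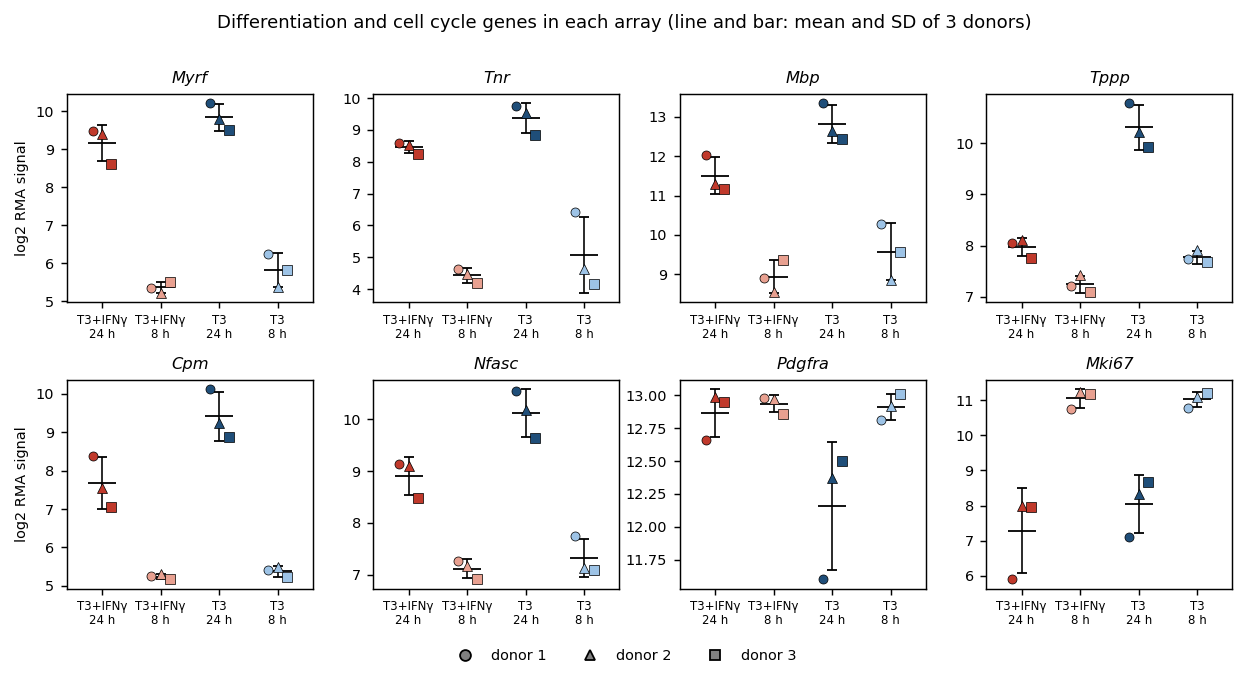
Log2 RMA signal (y axis) of 8 genes of differentiation, progenitors and the cell cycle in each array of both media at 24 h and 8 h, T3+IFNγ in red and T3 in blue, with a symbol for each donor and the mean and SD as line and bar. Myrf rose by 3.79 with T3+IFNγ, Tppp by 0.73 and Mki67 fell by 3.76.

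Some genes that T3 raised in this step rose less with T3+IFNγ. Tppp, a protein that organizes the microtubules of oligodendrocytes, had log2 signals of 8.04, 8.10 and 7.77 at 24 h, against 8 h values of 7.21, 7.43 and 7.10, with T3+IFNγ. With T3 it had 10.78, 10.21 and 9.92 at 24 h, against 8 h values of 7.73, 7.92 and 7.68. Its step was 0.73 with T3+IFNγ and 2.53 with T3, and the difference of −1.80 was called (limma adjusted p = 1.6e-04). Cpm, a membrane carboxypeptidase, had 8.39, 7.56 and 7.05 at 24 h, against 8 h values of 5.25, 5.30 and 5.17 with T3+IFNγ. Its step of 2.43 (1.33 with the mean of its probe sets) stood beside 4.03 with T3 (difference −1.60, adjusted p = 0.013, and 0.455 without donor 2).

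The secreted protein gene Tafa2 changed by 0.25 with T3+IFNγ, which was not called, and by 2.29 with T3, and the difference was not called without donor 2 (0.476). Rnf128, an E3 ubiquitin ligase of T cell anergy, and Tmem108, a neuronal membrane protein, also had negative differences (−2.62 and −1.88), but they had been higher with IFNγ at 8 h by 4.85 and 1.40. In all, 65 genes rose with T3 and had a negative difference. At 48 h, 40 of the 65 were lower with T3+IFNγ than with T3 and 4 higher, where 11.9% and 10.3% of all genes were. At 96 h, 30 were lower and 3 higher, where 7.90% and 11.0% of all genes were.

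Myelin genes were mixed. Of 34 measured, 11 rose and 2 fell with T3+IFNγ (median 0.14), beside 15 and 2 with T3 (median 0.28), and Tppp and Mag had called negative differences. Mbp, the basic protein of myelin, had log2 signals of 12.04, 11.30 and 11.17 at 24 h and 8.91, 8.54 and 9.37 at 8 h, a step of 2.56 (limma adjusted p = 5.4e-08) beside 3.25 with T3, and the difference of −0.68 was not called (adjusted p = 0.5). Fa2h, which hydroxylates myelin lipids, rose by 2.12 and Evi2a by 1.87. Mag, an adhesion protein of myelin chosen after its values were seen, had 5.97, 6.04 and 6.18 at 24 h and 4.87, 5.38 and 5.48 at 8 h. These low signals gave a step of 0.82, beside 2.11 with T3 (difference −1.30, adjusted p = 0.03). The members that fell were Gsn, an actin-severing protein (−0.57), and the junction protein Jam3 (−0.47).

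Genes of sterol and fatty acid synthesis, which supply myelin lipids, were called more often with T3. Of 29 measured, 18 rose and 1 fell with T3 (median 0.46), and 2 rose and 1 fell with T3+IFNγ (median 0.10). The risers with T3+IFNγ were Srebf1, which drives fatty acid genes (0.70, limma adjusted p = 9.3e-04, and 0.171 with no block), and the desaturase Scd2 (0.33, adjusted p = 0.015, and 0.135 without donor 1), and the sterol isomerase Ebp fell by 1.10. No single gene had a called difference between the steps, and the median difference was −0.34, against 0.00 over all genes.

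To set the size of the T3 step with IFNγ beside that without it, the genes were picked in 2 donors and measured in the one left over. Induced genes, at least 2-fold higher in the T3 step of both other donors (187 to 296 genes), rose by 1.27 ± 0.17 with T3+IFNγ and 1.63 ± 0.31 with T3 (log2, SD, n = 3 donors). The share was 90.3%, 78.2% and 69.1% in donors 1 to 3, 79.2 ± 10.7% on average, and below 100% in 3 of 3 donors. Repressed genes (331 to 428) changed by −2.05 ± 0.09 with T3+IFNγ, against −1.84 ± 0.18 with T3, a share of 112 ± 6.20%, and above 100% in 3 of 3 donors. The exact paired permutation test gave a two-sided p of 0.25 for both, the smallest that 3 donors allow.

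**Figure D5:**
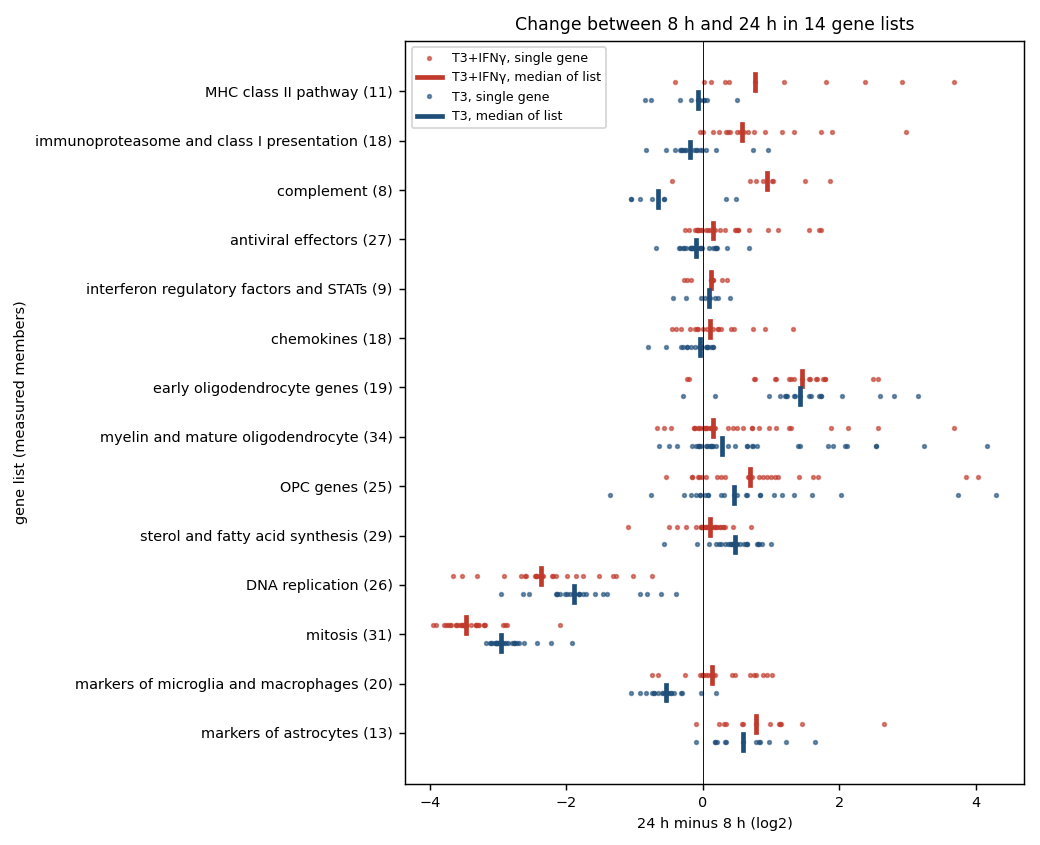
Change between 8 h and 24 h (log2, x axis) of single genes (points) and the list median (bars) in 14 gene lists (y axis, number of measured genes in brackets), with T3+IFNγ in red above T3 in blue. Medians of the mitosis genes were −3.47 with T3+IFNγ and −2.96 with T3, and those of the class II pathway 0.76 and −0.08.

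Genes of cell division fell. All 31 measured mitosis genes fell with T3+IFNγ (median −3.47) and with T3 (median −2.96), and 25 of 26 DNA replication genes fell (median −2.37, beside 24 and −1.89 with T3). Ung, a uracil glycosylase, was the replication gene that was not called. None of these genes had a called difference between the steps. Mki67, the marker of cycling cells, had log2 signals of 5.90, 8.00 and 7.96 at 24 h and 10.75, 11.23 and 11.17 at 8 h, a fall of −3.76 (limma adjusted p = 3.1e-09). Donor 1 was the lowest at 24 h.

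Other genes of the cycle fell likewise. Shcbp1, a protein of the midbody, had log2 signals of 4.83, 6.17 and 6.17 at 24 h and 9.71, 9.94 and 10.12 at 8 h, a step of −4.20 (limma adjusted p = 5.5e-10). Bub1, a spindle checkpoint kinase, had 5.59, 7.28 and 7.26 at 24 h and 10.51, 10.77 and 10.69 at 8 h, a step of −3.95. In both, donor 1 was again the lowest at 24 h and no values of the groups overlapped. Ska1 of the kinetochore, the checkpoint kinase Ttk, the cyclin Ccna2, the epigenetic factor Uhrf1 and the thymidine kinase Tk1 fell by 4.08, fell by 3.92, fell by 3.73, fell by 3.66 and fell by 3.53.

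Genes that act on the G1 phase were mixed. Of 15 D cyclins, CDK inhibitors and related genes, 7 fell and 3 rose, beside 15.6% lower and 15.0% higher over all genes. Cdkn1c, the inhibitor p57 of differentiating OPCs, had log2 signals of 11.60, 11.11 and 10.89 at 24 h and 10.18, 9.25 and 8.97 at 8 h, a rise of 1.73 (limma adjusted p = 6.4e-06). Its groups did not overlap. Rbl2, a pocket protein of quiescent cells, and Ccnd3 rose by 0.55 and 0.37, whereas the inhibitors Cdkn2a and Cdkn2c and the pocket protein Rbl1 fell by 1.86, fell by 1.62 (−0.88 with the mean of its probe sets) and fell by 2.31.

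Some targets of T3 rose. Hr, a corepressor induced by the T3 receptor, had log2 signals of 8.43, 9.15 and 8.35 at 24 h and 6.99, 7.77 and 7.20 at 8 h, a step of 1.32 (limma adjusted p = 1e-06), beside 1.30 with T3. Klf9, another direct target, rose by 0.94 (0.52 with the mean of its probe sets), and the step with T3 of 0.34 was not called (difference 0.61, adjusted p = 0.2). The receptor gene Thrb rose by 1.87 (1.145 with the mean of its probe sets), beside 0.57 with T3 (difference 1.29, adjusted p = 0.12), and Crym, which binds the hormone in the cytosol, by 1.70. Nrgn, a calmodulin-binding protein, went the other way and fell by 1.91. Of 13 genes of this list 6 rose and 1 fell, beside 15.0% higher and 15.6% lower over all genes.

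Part of the genes of growth and protein synthesis fell. Feedback genes of the MAPK pathway, which report growth factor signals, fell in 8 of 23 cases and none rose, with Dusp1, a phosphatase of the pathway, at −0.94 and Etv4, one of its transcription factors, at −0.98. Of 27 cytosolic ribosomal protein genes 14 fell (median −0.18), and of 30 genes of the constitutive proteasome 10 fell and 1 rose (median −0.16). Asns, which makes asparagine and answers to amino acid shortage, fell by 1.80 (limma adjusted p = 5.2e-05), while the chaperones Hspa5 and Dnajb9 of the endoplasmic reticulum rose by 0.68 and 0.74. Of 19 cell death genes 2 rose and 4 fell, beside 15.0% higher and 15.6% lower over all genes. Bcl2l11, a trigger of apoptosis, rose by 1.21 (0.36 with the mean of its probe sets) and Casp4, an inflammatory caspase, fell by 0.70.

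Markers of other cells differed in level and change. Of 13 astrocyte markers 9 rose and none fell with T3+IFNγ (median 0.78), and 8 rose with T3 (median 0.59), among them Aldoc (1.45) and the bicarbonate transporter Slc4a4 (1.13). Their mean log2 signal ranged over donors from 9.09 to 9.77 at 24 h and 8.43 to 8.75 at 8 h with T3+IFNγ, and OPCs and oligodendrocytes also express several of them. Of 18 neuronal markers 1 rose and 3 fell, of 16 of vascular cells and fibroblasts 1 rose and 3 fell, with 3 of the 16 over a log2 signal of 6 at 24 h, and of 13 T cell markers none was called and 1, Lck, was over 6. The part of these cells in the step was not tested. For comparison, 15.0% of all genes were higher in the step and 15.6% lower.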

How the data were processed

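The authors deposited 1 table of log2 signals for 27 Affymetrix arrays, which the submitters' notes credit to RMA, with limma for comparisons. RMA equalizes the distributions of the arrays, so a change of total RNA per cell is not kept. The log2 values were used as deposited. Of 31099 probe sets, the 2016 platform annotation gave 1 symbol to 20832, several to 436 and none to 9831, and 20764 matched GRCr8. Of the 14218 genes, 4526 had several probe sets.

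limma 3.58.1 (R 4.3.3) fitted 9 group means with donor as a block over all 27 arrays, with eBayes and Benjamini-Hochberg adjustment, and calls needed an adjusted p under 0.05. The fit was tested on simulated data. Python 3.11.15, pandas 2.3.3, NumPy 2.4.6, SciPy 1.17.1 and matplotlib 3.10.9 made tables and plots. With donor as a block, the p-values measure the spread left after mean differences between donors are removed, estimated over all 27 arrays. The 3 arrays in each group limit the precision. The labels name each array's donor, and the deviations from group means of the 24 h and 8 h T3+IFNγ arrays correlated with r of 0.389, 0.411 and 0.460 in donors 1 to 3. The highest correlation between 2 arrays was 0.9973.

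Genes, 32 lists and rules were chosen with earlier results of these data known. The rule for named genes took the 12 largest rises and falls called and of 1 sign in all donors, at most 4 called genes a list with those against its direction, the 8 largest differences of each sign, the 10 delayed genes not yet higher at 8 h with the largest step, the brightest marker of each cell type, and some lineage and interferon genes, 161 in all, of which the text uses a part. Alternatives were no donor block, median centring, a filter (over 6 in at least 3 arrays), the arrays of the comparison alone, an intensity trend, the mean of probe sets, a 2-fold minimum, and leaving out donors or donor 2 arrays.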

Additional observations from a re-analysis of the deposited data

Results flagged for a closer look

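The step from 8 h to 24 h was tested for a difference between T3+IFNγ and T3 cultures by an interaction term, and the results past an adjusted p of 0.05 (limma) were taken up here. The step was more positive with T3+IFNγ for 118 genes and more negative for 93, and 1609 genes were past an unadjusted p of 0.05. The positive differences among the named genes (log2) were, in the MHC, 4.45 for RT1-N2, 3.67 for Cd74, 2.95 for RT1-A, 2.86 for RT1-Db1, 2.45 for RT1-Da, 2.21 for RT1-CE5, 1.97 for RT1-N3 and 1.88 for RT1-Bb. For other genes of the interferon response and of immunity they were 3.17 for Plac8, 3.03 for Ubd, 2.92 for C3, 2.85 for Lyz2, 2.07 for Serping1, 1.86 for Zbp1, 1.83 for Bst2, 1.59 for Oas1a, 1.59 for Il1b, 1.47 for Psmb8, 1.17 for Gbp4 and 0.99 for Vcam1. For the remaining genes they were 2.08 for Gdpd2, 1.89 for Gpr20, 1.68 for Aldh1l1, 1.5 for Armc3, 1.20 for Agt, 0.97 for Nqo1 and 0.95 for Ndrg2. The negative differences were −2.62 for Rnf128, −2.03 for Tafa2, −1.88 for Tmem108, −1.80 for Tppp, −1.75 for Tcf7, −1.69 for Nrcam, −1.67 for Sectm1b, −1.60 for Cpm, −1.27 for Reln, −0.88 for Kdr and −0.80 for Tgfb3. Of these 38 named genes, 7 kept their call under every alternative run, namely Cd74, RT1-A, RT1-CE5, RT1-N3, Rnf128, Tppp and Sectm1b.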

How the results depend on the processing

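No named value that was called changed direction under the alternatives, and 33 that were not called did under at least 1. Of 151 named genes called in the step, 99 kept the call under every alternative. With no replicate block, 1711 genes were higher and 1837 lower in the step, the difference between the steps held 51 genes above 0 and 44 below, and 36 genes met the rule for delayed genes. Asking for at least 2-fold left 343 and 519 genes in the step. Leaving out single donors, or the 8 h T3+IFNγ array of donor 2 alone, gave 1070 to 2296 higher and 1303 to 2277 lower genes, 6 to 166 and 4 to 149 differences, and 6 to 131 delayed genes. Of the 87 delayed genes, 6 were still called without donor 2, 13 without donor 3 and 63 without donor 1. Without both donor 2 arrays of the step, a setting added with the data in view, 1354 genes were higher, with 52 and 57 differences and 40 delayed genes. Repressed genes chosen at 1.5-fold reached 105% of the T3 step. Median centring gave 2524 higher and 1845 lower genes, and the other settings stayed within 1.5 times of each count. Detection calls were not used here, so dim probe sets were held back in no setting but the filter on low values.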
